A study of Mus musculus with 12 samples.

Results

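Of the genes for axon and cell guidance cues and their receptors, 51 were followed here: semaphorins, plexins and neuropilins, Slits and Robos, netrins and netrin receptors, and ephrins and Eph receptors. They were taken by name, 27 ligands and 24 receptors, and all 51 were found among the 54532 genes of the deposited table. The filter on low values, 10 or more normalised counts in 6 or more libraries, kept 49 of them among 16733 tested genes, and left out *Sema3g* and *Sema7a*. RNA came from mesenchyme of mouse limbs at E14.5. All embryos carried Prrx1-Cre from their fathers, which acts in limb mesenchyme, and a transgene at Rosa26 behind a stop that Cre removes. In the iCreb5 group (6 libraries) this transgene was bovine Creb5, HA-tagged, followed by an ires and GFP. In the tdTomato group (6 libraries) it was the red fluorescent protein tdTomato, so both groups express a fluorescent protein and Cre. Cells were sorted by fluorescence, and the fluorescent protein differed by group (GFP in iCreb5, red in tdTomato). Its effect, and that of the sort, cannot be told apart from that of Creb5. Prrx1-Cre marks limb mesenchyme and its descendants, so precursors of cartilage, bone and tendon can be among them. By the labels, 3 iCreb5 and 3 tdTomato libraries came from litter 3, and litters 4, 5 and 6 each added 1 pair. Batch labels follow the litters, so batch and litter cannot be told apart. The design text counts 6 litters where the labels show 4. No source used here says whether a library was 1 embryo or pooled embryos, and p-values cover only the spread among the 12 libraries.

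Guidance cues tell moving axons and cells where to go. Semaphorins bind plexins, and the secreted class 3 semaphorins mostly do so with a neuropilin as the binding partner. Slits bind Robos, netrins bind Dcc, neogenin and the Unc5 receptors, and ephrins bind Eph receptor tyrosine kinases on neighbouring cells. In the limb these cues steer motor and sensory axons and shape the vessels that grow through the mesenchyme, and Eph receptors and ephrins keep groups of mesenchymal cells apart.

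Depth, recovered from the deposited values, ran from 9.02 M reads in tdTomato 3a to 53.3 M in tdTomato 3b, and 3 reads were worth 1.48 to 8.38 normalised counts, a floor that covers counting error only. *Creb5* itself had 2799 ± 214 normalised counts in iCreb5 and 1803 ± 299 in tdTomato (SD, n = 6 for each mean), a log2 change of 0.65 (limma adjusted p = 0.00219), and the groups did not overlap. The count may include reads of the bovine transgene, whose handling no source used here states. All 9 markers of limb mesenchyme were tested, with *Prrx1* at 4158 ± 575 in iCreb5 and 4986 ± 943 in tdTomato. Of the 9 only *Tbx4*, a hindlimb factor, passed, higher in iCreb5 (2146 ± 416 in iCreb5 and 1464 ± 222 in tdTomato, log2 change 0.54, adjusted p = 0.033). Markers of other cell types differed between the groups. All 11 leukocyte markers were higher in iCreb5, with a summed level of 2388 to 11022 in iCreb5 and 599 to 1035 in tdTomato. Of 9 endothelial markers 5 were higher, with sums of 2006 to 4585 in iCreb5 and 1475 to 2052 in tdTomato. All 10 chondrocyte markers were lower, with sums of 75719 to 107466 in iCreb5 and 149340 to 343011 in tdTomato, as were 7 of 8 tested osteoblast markers. Among 8 tested neuronal markers *Nefl* and *Isl1* were higher and *Stmn2* was lower, while the neuronal tubulin *Tubb3* stood at 24.8 in iCreb5 and 26.6 in tdTomato and *Elavl3* lay below the filter. Of the Schwann cell and melanoblast markers *Sox10* was lower, of the pericyte markers *Cspg4* was, and no tested marker of skeletal muscle (6), epidermis (6) or red cells (5) passed limma's threshold. The parts of these cell types in the results on guidance genes were not tested.

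Most guidance genes did not pass the test between the groups, and the 4 that did were all higher in iCreb5: the receptors *Ephb1*, *Epha5* and *Dcc* and the ligand *Sema3a*. The test was limma on log2(normalised count + 1), with adjusted p under 0.05 over all tested genes as the threshold. These 4 were 8.16% of the 49 tested members, where 6.72% of all tested genes passed, 3.87% higher and 2.85% lower. With libraries rescaled to equal totals 4 members were again higher. Of all tested genes 4.77% then passed as higher and 2.28% as lower, a share of rises among calls of 67.7% with equal totals and 57.6% with the deposited scaling. With litter as a replicate block 5 members were higher (*Epha7* in addition), where 5.13% of all tested genes were higher and 4.35% lower. As lower, the pooled limma fit (all 12 libraries, no litter term), limma with litter as a replicate block and edgeR on recovered reads called 0 members. DESeq2 called 1 (*Nrp2*), where edgeR called 2.81% and DESeq2 4.27% of all genes lower. With litter as a replicate block and litter 3 averaged, 4 were lower (*Nrp1*, *Nrp2*, *Ntn1* and *Sema3d*) and 5 higher. Of all tested genes 2.4% and 3.05% were. Within litters 4 to 6 alone 8 were lower and 4 higher, where 2.2% and 1.91% of all tested genes were. At unadjusted p under 0.05, 7 members were higher and 9 lower, or 14.3% and 18.4% of the members, where 9.93% and 8.27% of all tested genes were. Beside the 4, those higher were *Epha7*, *Slit2* and *Efna3*, and those lower were *Nrp1*, *Nrp2*, *Ntn1*, *Unc5b*, *Sema3b*, *Sema3d*, *Sema6d*, *Efna5* and *Efnb1*. The median log2 change was -0.01 over the members and 0.00 over all tested genes. Ligands and receptors gave 1 call of 25 and 3 calls of 24, with medians of -0.01 and 0.01. In *Ephb1* and *Epha5* every iCreb5 value lay above every tdTomato value, which makes 4.08% of the members, where 4.75% of all tested genes had groups that did not overlap, 2.83% with iCreb5 above. In these bulk libraries fewer cells of a type and less RNA per cell cannot be told apart.

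**Figure D1:**
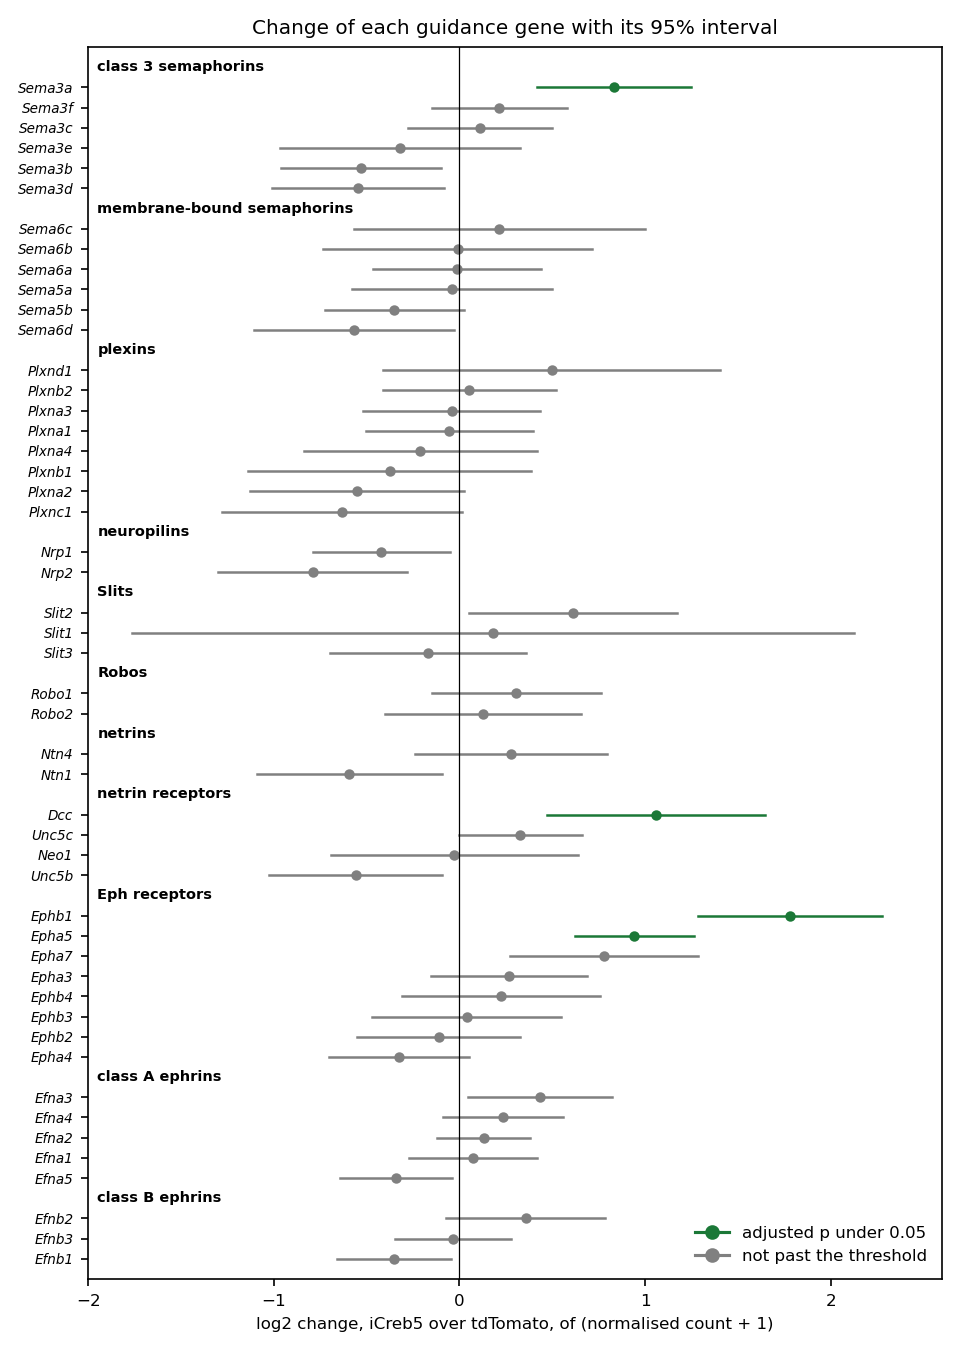
Log2 change, iCreb5 over tdTomato, of each of the 49 tested guidance genes (points) with its 95% confidence interval (lines), grouped by family from the class 3 semaphorins to the class B ephrins. The 4 genes past the threshold are green and lie right of 0, from *Sema3a* at 0.83 to *Ephb1* at 1.78, and the intervals of most other genes cross 0.

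Among the class 3 semaphorins *Sema3a*, a secreted repellent for sensory and motor axons, was higher in iCreb5, 1.78-fold. *Sema3a* (ENSMUSG00000028883, mm10 chromosome 5, 13125414 to 13602565, plus strand) had 5886, 4446, 6317, 5270.1, 2567 and 3995 normalised counts in iCreb5 3a, 3b, 3c, 4a, 5 and 6, and 3278, 2209, 3009.5, 2327, 1953 and 2811 in tdTomato 3a, 3b, 3c, 4a, 5b and 6d. Every iCreb5 library except iCreb5 5 stood above all tdTomato libraries. The means were 4747 ± 1374 in iCreb5 and 2598 ± 513 in tdTomato, and the log2 change was 0.83 ± 0.20 (SE, adjusted p = 0.0155). Without iCreb5 3a and 3c together it was 0.62 (adjusted p = 0.0978). The other 5 tested members of this class did not pass. The most abundant of them per kilobase, *Sema3c*, which helps shape the outflow tract of the heart, averaged 4338 ± 1063 in iCreb5 and 3978 ± 863 in tdTomato. *Sema3b* and *Sema3d* had log2 changes of -0.53 and -0.55 (adjusted p = 0.156 and 0.177; for *Sema3d* -0.65 and 0.0364 with litter as a replicate block and litter 3 averaged), *Sema3e*, a ligand of plexin D1, had -0.32, and *Sema3f*, a ligand of neuropilin 2, had 0.22. *Sema3g* was near the limit of detection, at 0 to 17.7 in iCreb5 and 0 to 7.44 in tdTomato.

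With all 12 libraries none of the 6 tested membrane-bound semaphorins passed limma's threshold, at 0.21 (*Sema6c*) to -0.57 (*Sema6d*) on the log2 scale in the pooled fit. At unadjusted p under 0.05, *Sema6d* was lower (adjusted p = 0.241), with 237 ± 109 normalised counts in iCreb5 and 332 ± 75.6 in tdTomato. *Sema6a*, a ligand of the A-type plexins and the most abundant of the class per kilobase, averaged 1700.3 ± 460.3 in iCreb5 and 1727 ± 484 in tdTomato. *Sema5a* and *Sema5b*, which carry thrombospondin repeats, had log2 changes of -0.04 and -0.35, and *Sema6b* had -0.01. Some limma fits on fewer libraries passed, as lower. *Sema6d* had -0.96 (adjusted p = 0.0101) without iCreb5 3a and 3c, and *Sema5b* -0.49 (0.0476) without tdTomato 5b. Within litters 4 to 6 *Sema6d* (0.0218) and *Sema5a* (-0.71, 0.0318) passed, while *Sema5a* had 0.63 within litter 3 (0.199). *Sema7a*, held to the membrane by a lipid anchor, was at 0 to 11 in iCreb5 and 3.72 to 23.0 in tdTomato and was not tested.

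The semaphorin receptors gave no call in the pooled limma fit, and both neuropilins had lower means in iCreb5. *Nrp2*, which binds Sema3f and some forms of VEGF, had 1621, 749, 1646, 768, 639 and 908 normalised counts in iCreb5 3a, 3b, 3c, 4a, 5 and 6, and 1725, 1067, 2035, 2093, 1677 and 1821 in tdTomato 3a, 3b, 3c, 4a, 5b and 6d. Of the iCreb5 libraries 4 lay below every tdTomato library, and iCreb5 3a and 3c lay within the tdTomato range. The log2 change was -0.79 ± 0.24 (SE, adjusted p = 0.0626). It was -0.94 both without iCreb5 3a (adjusted p = 0.0238) and without iCreb5 3c (0.0212), -0.92 without tdTomato 3b (0.0287) and -1.16 without iCreb5 3a and 3c together (0.00168). With all 12 libraries it passed in DESeq2 (-0.72, adjusted p = 0.0421) and with litter as a replicate block and litter 3 averaged (-1.04, 0.0094). It also passed with the length trend of each library removed, a fit described below. It did not pass with litter as a replicate block alone (adjusted p = 0.0634) or in edgeR (-0.71, 0.0988). *Nrp1*, the neuropilin that Sema3a binds, averaged 2964 ± 669 in iCreb5 and 3972 ± 873 in tdTomato, a log2 change of -0.42 (adjusted p = 0.202). Without tdTomato 5b it was -0.54 (adjusted p = 0.0416), and in the block with litter 3 averaged -0.51 (0.047). The 8 plexins, the signalling receptors, ranged from -0.63 (*Plxnc1*) to 0.50 (*Plxnd1*), 6 with a negative and 2 with a positive change. *Plxnb2*, the most abundant plexin per kilobase, averaged 3151 ± 1073 in iCreb5 and 3009 ± 861 in tdTomato. The endothelial receptor *Plxnd1* varied widely, from 108 to 402 in iCreb5 and from 66.9 to 439 in tdTomato.

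**Figure D2:**
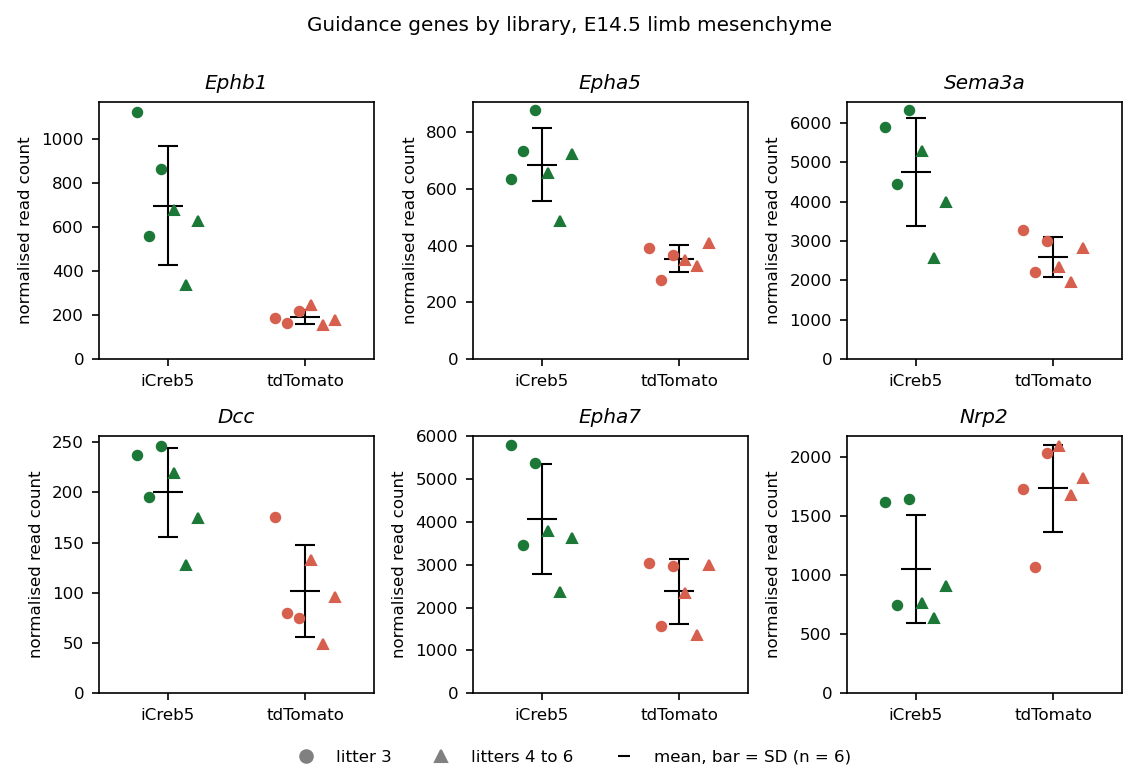
Normalised read count (vertical axes from 0) of *Ephb1*, *Epha5*, *Sema3a*, *Dcc*, *Epha7* and *Nrp2* in each iCreb5 library (green, left) and tdTomato library (red, right), with circles for litter 3, triangles for litters 4 to 6 and bars for mean ± SD (n = 6). The groups are apart for *Ephb1* (337 to 1123 in iCreb5, 157 to 244 in tdTomato) and *Epha5* (485 to 876 in iCreb5, 278 to 408 in tdTomato) and overlap in the other 4 genes.

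No Slit or Robo passed limma's threshold. *Slit2* had 1338 ± 526 normalised counts in iCreb5 and 863 ± 298 in tdTomato, a log2 change of 0.61 ± 0.26 (SE, adjusted p = 0.219). *Slit3*, the most abundant Slit per kilobase, averaged 682 ± 245 in iCreb5 and 761 ± 258 in tdTomato. *Slit1* was low, from 0 (iCreb5 4a) to 36.2 in iCreb5 and from 0 (tdTomato 5b) to 34.3 in tdTomato, where 3 reads correspond to 3.23 in iCreb5 4a and 4.56 in tdTomato 5b. The receptor *Robo1* averaged 1474 ± 394 in iCreb5 and 1204 ± 334 in tdTomato, and *Robo2* 1389 ± 543 in iCreb5 and 1255 ± 405 in tdTomato.

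In the netrin system the receptor gene *Dcc*, which mediates attraction of axons to netrin, was 2.08-fold higher in iCreb5, while its ligand gene *Ntn1* had a lower mean there. *Dcc* (ENSMUSG00000060534) had 237, 195, 246, 219.8, 127 and 174 normalised counts in iCreb5 3a, 3b, 3c, 4a, 5 and 6, and 176, 80.1, 75.4, 133, 48.7 and 95.7 in tdTomato 3a, 3b, 3c, 4a, 5b and 6d. The iCreb5 libraries 5 and 6 lay within the tdTomato range, and the other 4 lay above it. The means were 200 ± 44.4 in iCreb5 and 101 ± 45.8 in tdTomato, with a log2 change of 1.06 ± 0.28 (SE, adjusted p = 0.0292) on 32 to 487 recovered reads per library. This call was the least stable of the 4: adjusted p was 0.0691 without iCreb5 3a, 0.0584 without 3b, 0.0694 without 3c and 0.0643 without 4a, and 0.0616, 0.0644 and 0.0508 without tdTomato 3b, 3c and 6d. Without iCreb5 3a and 3c together it was 0.153, and with no filter on low values 0.0543, while the log2 change stayed between 0.87 and 1.25 in all 27 alternatives.

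*Ntn1* averaged 574 ± 207 normalised counts in iCreb5 and 847 ± 240.3 in tdTomato (log2 change -0.59 ± 0.23 SE, adjusted p = 0.173), and without iCreb5 3a and 3c the change was -0.88 (adjusted p = 0.0329). In the block with litter 3 averaged it was -0.81 (0.0293). *Ntn4*, a netrin of basement membranes, averaged 214 ± 53.2 in iCreb5 and 181 ± 65.1 in tdTomato. *Neo1*, the neogenin gene and the most abundant netrin receptor per kilobase, spread from 1107 to 4580.3 in iCreb5 and from 1526 to 3379.5 in tdTomato. The repulsive receptors had log2 changes of -0.56 for *Unc5b* (adjusted p = 0.172) and 0.33 for *Unc5c* (adjusted p = 0.282).

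With all 12 libraries none of the 8 ephrin genes passed limma's threshold. The class A ephrins, which are lipid-anchored, ranged from -0.34 (*Efna5*, adjusted p = 0.199) to 0.43 (*Efna3*, adjusted p = 0.211) on the log2 scale. *Efna2*, the most abundant of them per kilobase, averaged 1996 ± 208 in iCreb5 and 1829.8 ± 259 in tdTomato. *Efna1* and *Efna4* had log2 changes of 0.07 and 0.23. Exons of *Efna3* and *Efna4* overlap genes on the opposite strand over 14.1% and 10.5% of their length, and no source used here states whether counting used strand. Of the transmembrane class B ephrins, *Efnb1*, whose loss causes craniofrontonasal syndrome in humans, averaged 1819.9 ± 336 in iCreb5 and 2317 ± 388 in tdTomato (log2 change -0.35, adjusted p = 0.194). Within litters 4 to 6 *Efnb1* passed as lower (-0.62, adjusted p = 0.0278), and within litter 3 it had -0.09 (0.84). *Efnb2* and *Efnb3* had 0.36 and -0.03 in the pooled fit.

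The Eph receptors held the 2 members whose groups did not overlap, both higher in iCreb5: *Ephb1* by 3.44-fold and *Epha5* by 1.92-fold. *Ephb1*, a receptor for the class B ephrins (ENSMUSG00000032537, mm10 chromosome 9, 101922128 to 102354693, minus strand), had 1123, 562, 866, 677, 337 and 627 normalised counts in iCreb5 3a, 3b, 3c, 4a, 5 and 6, and 187, 165, 218, 244, 157 and 178 in tdTomato 3a, 3b, 3c, 4a, 5b and 6d. The lowest iCreb5 library stood above the highest tdTomato library. The means were 698 ± 269.5 in iCreb5 and 192 ± 33.4 in tdTomato, with a log2 change of 1.78 ± 0.23 (SE, adjusted p = 0.000156). *Epha5*, a receptor for the class A ephrins (ENSMUSG00000029245, mm10 chromosome 5, 84054761 to 84417382, minus strand), had 636, 732, 876, 655, 485 and 723 normalised counts in iCreb5 3a, 3b, 3c, 4a, 5 and 6, and 391, 278, 367, 347, 327 and 408 in tdTomato 3a, 3b, 3c, 4a, 5b and 6d. Here too the groups did not overlap. The means were 684 ± 129 in iCreb5 and 353 ± 47.0 in tdTomato, with a log2 change of 0.94 ± 0.15 (SE, adjusted p = 0.00087). *Ephb1* and *Epha5* passed in all 27 alternatives, with log2 changes of 1.46 to 2.11 and 0.77 to 1.12. *Ephb1* shares 2.17% of its exon length with a lincRNA gene on the opposite strand.

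*Epha7*, a class A receptor expressed in limb mesenchyme, had 5781, 3464, 5358, 3780.2, 2362 and 3630.4 normalised counts in iCreb5 3a, 3b, 3c, 4a, 5 and 6, and 3035, 1561, 2977, 2334, 1372 and 2986 in tdTomato 3a, 3b, 3c, 4a, 5b and 6d. Only iCreb5 5 lay within the tdTomato range. The log2 change of 0.78 ± 0.24 (SE, adjusted p = 0.0648) did not pass the threshold. It did with litter as a replicate block (adjusted p = 0.0166), with DESeq2 (0.0191) and without iCreb5 5 (0.0191, log2 change 0.93). Of the 27 alternatives it passed in 7 and not in 20. Without iCreb5 3a and 3c together the limma log2 change was 0.52 (adjusted p = 0.293). The other 5 Eph receptors did not pass. *Ephb4*, the venous partner of ephrin-B2, averaged 4622 ± 1659 in iCreb5 and 3903 ± 1221 in tdTomato. *Epha4*, which steers motor axons within the limb, averaged 1579 ± 417 in iCreb5 and 1964 ± 409 in tdTomato (log2 change -0.33, adjusted p = 0.362). *Epha3*, *Ephb2* and *Ephb3* had log2 changes of 0.27, -0.11 and 0.04.

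Promoter sequences were read, since Creb5 belongs to the CREB/ATF factors, whose known binding letters can be looked for. RefSeq tables of build GRCm38.p6 hold 250 bases before to 50 after the start for 42 of the 51 members, at 51 start sites. The called gene *Dcc* is not among the 42. The full cAMP response element, TGACGTCA, was in 0 of the 51 windows, and 1.79% of all 32851 windows of this length hold it. The half-site TGACG, searched on both strands, was in 9 windows (17.6%), against 20.8% of all windows, and a full element would also count as a half-site. The AP-1 letters TGANTCA were in 1 window (1.96%, a start of *Sema6b*), against 7.81% of all windows. The windows of *Ephb1* (chr9:102354644-102354943, minus strand), *Epha5* (chr5:84417333-84417632, minus strand) and *Sema3a* (chr5:13396534-13396833, plus strand) follow, 5′ to 3′, for 3 of the 4 called genes. Capitals mark the half-site, here as its reverse complement CGTCA, which only the *Ephb1* window holds.
Ephb1: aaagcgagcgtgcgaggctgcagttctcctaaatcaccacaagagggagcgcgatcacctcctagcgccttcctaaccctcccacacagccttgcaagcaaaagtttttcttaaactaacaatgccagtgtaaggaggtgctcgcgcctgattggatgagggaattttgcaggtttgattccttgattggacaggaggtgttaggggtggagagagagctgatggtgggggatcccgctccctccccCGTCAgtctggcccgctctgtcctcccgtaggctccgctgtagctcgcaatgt
Epha5: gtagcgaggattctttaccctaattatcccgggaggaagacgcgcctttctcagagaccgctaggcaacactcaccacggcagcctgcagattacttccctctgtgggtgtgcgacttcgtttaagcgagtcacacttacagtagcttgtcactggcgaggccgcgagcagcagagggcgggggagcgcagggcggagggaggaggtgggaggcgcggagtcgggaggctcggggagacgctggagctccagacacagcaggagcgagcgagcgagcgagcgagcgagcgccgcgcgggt
Sema3a: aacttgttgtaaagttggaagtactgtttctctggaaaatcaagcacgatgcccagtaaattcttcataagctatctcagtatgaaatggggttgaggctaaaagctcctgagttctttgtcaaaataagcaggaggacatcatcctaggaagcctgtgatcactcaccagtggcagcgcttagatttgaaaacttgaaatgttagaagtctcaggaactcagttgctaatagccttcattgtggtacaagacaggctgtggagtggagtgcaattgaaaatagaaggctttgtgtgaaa
The windows of *Epha5* and *Sema3a* hold none of the 3 motifs. A match is a description of letters, and no match says only that these letters are not in these windows. The *Sema3a* window lies inside the gene as the mm10 annotation draws it, downstream of the start annotated there.

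For most members the log2 change was larger (more positive) within litter 3 than within litters 4 to 6. The median log2 change of the 49 members was 0.316 within litter 3 and -0.285 within litters 4 to 6, with 33 and 16 members positive. The change within litter 3 was the larger in 44 of 49 members (89.8%), where it was in 51% of all tested genes. Within litter 3 alone, 3 against 3, *Ephb1* (2.11, adjusted p = 0.00299), *Epha5* (1.12, 0.016) and *Sema3a* (0.97, 0.0204) passed, all higher, where 2.36% of all tested genes passed as higher and 1.75% as lower. Within litters 4 to 6, with litter as a term, 4 members were higher and 8 lower, where 1.91% and 2.2% of all tested genes were. The 4 were *Ephb1* (1.46, adjusted p = 0.00669), *Epha5* (0.77, 0.0441), *Sema3a* (0.69, 0.0473) and *Epha7* (0.59, 0.0473). The 8 were *Nrp2* (-1.28, adjusted p = 0.00241), *Ntn1* (-1.03, 0.00903), *Sema6d* (-1.15, 0.0218), *Efnb1* (-0.62, 0.0278), *Sema5a* (-0.71, 0.0318), *Sema3d* (-0.75, 0.0441), *Nrp1* (-0.60, 0.0472) and *Unc5b* (-1.08, 0.0479). *Dcc* had 1.13 in litter 3 and 0.98 in litters 4 to 6, each short of the threshold (adjusted p = 0.0971 and 0.0955). The difference between the sets was itself tested as an interaction. In limma 10 of the 49 members had an unadjusted p under 0.05 and the smallest adjusted p was 0.501, so for no member was the difference past the threshold. Over all 16733 tested genes the interaction gave 1500 at unadjusted p under 0.05 (8.96%) and a smallest adjusted p of 0.416.

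**Figure D3:**
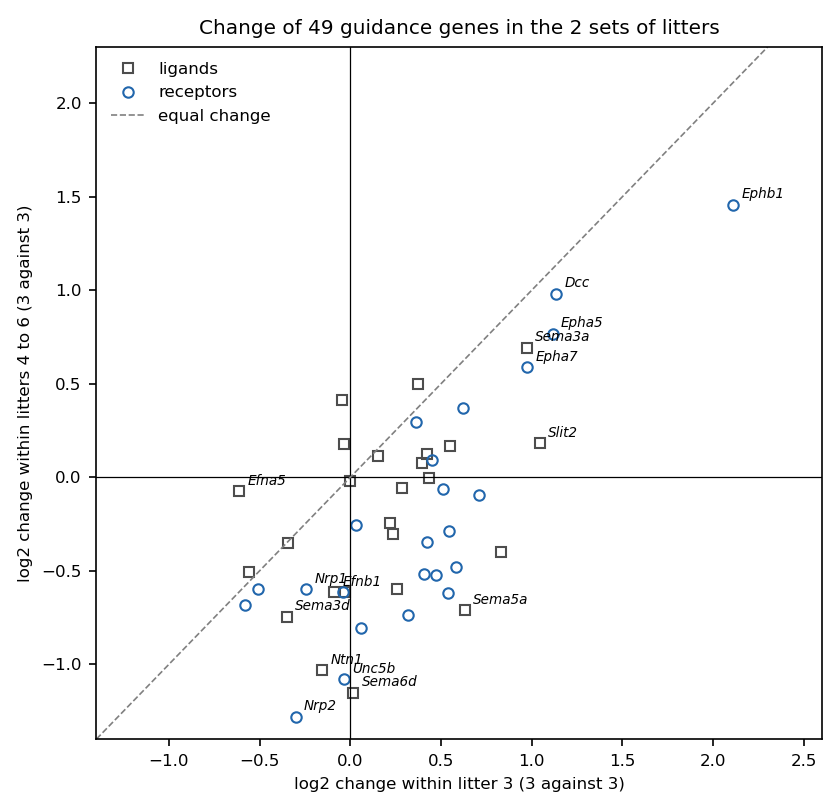
Log2 change, iCreb5 over tdTomato, of the 49 tested guidance genes within litter 3 (horizontal) and within litters 4 to 6 (vertical), ligands as squares and receptors as circles, with a dashed line of equal change. Most points, 44 of 49, lie below the line, and *Ephb1*, *Dcc*, *Epha5*, *Sema3a* and *Epha7* lie far to the upper right.

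Single libraries differed in the level of the members as a whole, and not by litter alone. The median deviation of the members from their own means over the 12 libraries was 0.43 in iCreb5 3a, -0.16 in 3b, 0.50 in 3c, -0.02 in 4a, -0.48 in 5 and -0.06 in 6. In tdTomato it was -0.03 in 3a, -0.37 in 3b, 0.16 in 3c, 0.24 in 4a, -0.41 in 5b and 0.27 in 6d. Thus iCreb5 3a and 3c had 41 and 42 of the 49 members above their means, and iCreb5 5 and tdTomato 3b had 6 and 7. Transcript length moved with it. An index of each library, the median deviation of long genes (the upper tertile of all tested genes, 5440 bases of merged exons or more) minus that of short genes (the lower tertile, 2910 bases or less), was 0.35 in iCreb5 3a and 0.31 in iCreb5 3c, and -0.42 in iCreb5 5. In tdTomato it was -0.27 in 3b and -0.48 in 5b, and in the other 7 libraries it lay between -0.08 and 0.14. Of the 49 members 37 are long and 4 short by this measure. Among all long genes 65.7% had the larger change in litter 3, and among all short genes 39.5%. With the length trend of each library removed, an alternative chosen after seeing the data, 5 members were higher (*Ephb1*, *Epha5*, *Sema3a*, *Dcc* and *Epha7*) and 3 lower (*Nrp1*, *Nrp2* and *Sema3b*), where 4.01% and 4.14% of all tested genes were. The 3 lower members had log2 changes of -0.47, -0.84 and -0.59 in that limma fit (adjusted p = 0.038, 0.00574 and 0.0498). Without iCreb5 3a and 3c, also chosen after seeing the data, 2 were higher (*Ephb1* and *Epha5*) and 4 lower (*Nrp2*, *Ntn1*, *Sema3d* and *Sema6d*), where 2.44% and 2.07% of all tested genes were. What sets this index was not tested.

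**Figure D4:**
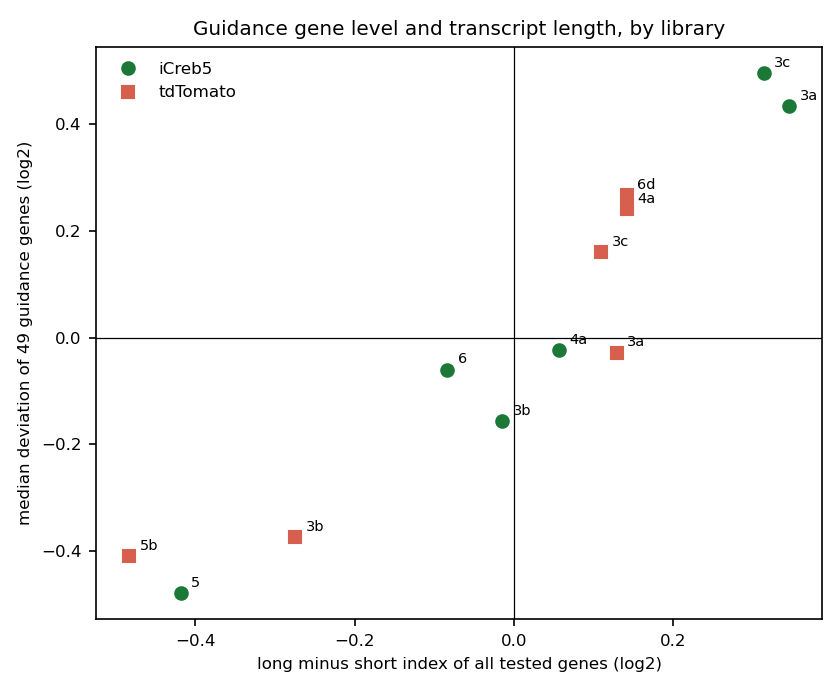
Median deviation of the 49 guidance genes from their own means (vertical, log2) against the long minus short index of all tested genes (horizontal, log2) in the 6 iCreb5 libraries (green circles) and the 6 tdTomato libraries (red squares). The libraries iCreb5 3a and 3c lie at the upper right, and iCreb5 5, tdTomato 5b and tdTomato 3b at the lower left.

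Levels compared between genes need a correction for length, and per kilobase of merged exons *Ephb4* and *Efna2* led. *Ephb4* had 996 ± 358 normalised counts per kilobase in iCreb5 and 841 ± 263 in tdTomato, and *Efna2* had 936 ± 97.7 in iCreb5 and 859 ± 121 in tdTomato. These held the first 2 places in both groups. The members at the low end were *Slit1*, *Sema7a* and *Sema3g*, with 3.11, 1.33 and 1.13 per kilobase in iCreb5 and 2.56, 3.87 and 0.82 in tdTomato. In each group all 50 pairs of neighbours in the order of levels had overlapping ranges, so the order is not fixed between neighbours. *Ephb1* stood in place 25 of 51 in iCreb5 and in place 41 in tdTomato, with 99.8 ± 38.5 per kilobase in iCreb5 and 27.4 ± 4.78 in tdTomato. *Epha5* took place 38 in iCreb5 and 44 in tdTomato, *Sema3a* took 15 in iCreb5 and 20 in tdTomato, and *Epha7* took 9 in iCreb5 and 18 in tdTomato. *Nrp1* took place 17 in iCreb5 and 8 in tdTomato, and *Nrp2* 28 in iCreb5 and 21 in tdTomato. *Dcc* stayed near the bottom, in place 47 in iCreb5 and 48 in tdTomato, at 15.2 ± 3.37 per kilobase in iCreb5 and 7.71 ± 3.48 in tdTomato.

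**Figure D5:**
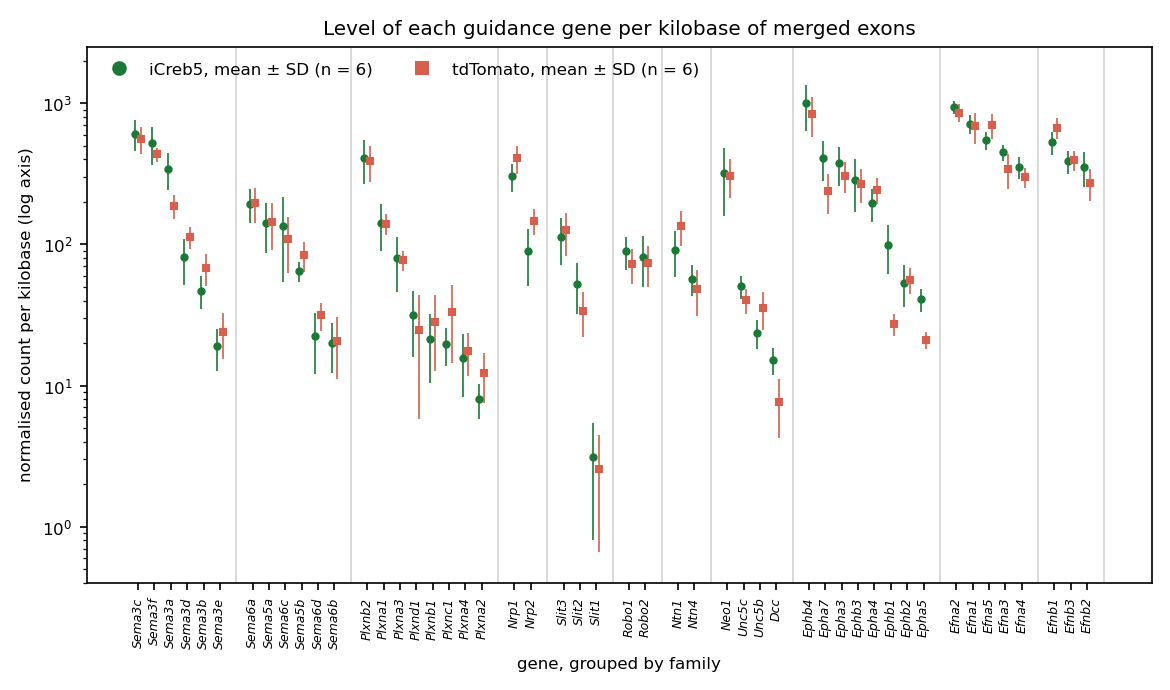
Normalised count per kilobase of merged exons (log axis) of the 49 tested guidance genes, grouped by family, with iCreb5 in green left of tdTomato in red, as mean ± SD (n = 6). Levels run from *Slit1* (3.11 in iCreb5, 2.56 in tdTomato) to *Ephb4* (996 in iCreb5, 841 in tdTomato).

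Further genes of the same systems were looked at in 2 lists. Of 30 more ligands, receptors and co-receptors, 24 were tested and 2 passed (8.33%, where 6.72% of all tested genes did), both Eph receptors and both higher in iCreb5. *Epha1* averaged 285 ± 60.4 normalised counts in iCreb5 and 146 ± 37.7 in tdTomato, with iCreb5 5 at 200.3 within the tdTomato range of 113 to 215 (log2 change 0.97, adjusted p = 0.0055). Litter 3 alone gave *Epha1* 1.14 (adjusted p = 0.0194), and litters 4 to 6 gave 0.79 (0.0895). Its exons overlap *Zyx* on the opposite strand over 6.01% of their length. *Epha6* averaged 42.7 ± 20.6 in iCreb5 and 10 ± 5.42 in tdTomato, with a lowest iCreb5 value of 21.1 and a highest tdTomato value of 14.9 (log2 change 2.25, adjusted p = 0.0349). It was at 0 in tdTomato 5b, where 3 reads correspond to 4.56, and without that library the log2 change was 1.64 (adjusted p = 0.0114). Litter 3 alone gave 1.91 (adjusted p = 0.0869), and litters 4 to 6 gave 2.59 (0.107). Its call was lost in 11 of 26 alternatives, among them without iCreb5 3b, 3c, 4a or 6 or tdTomato 3a (adjusted p = 0.0737, 0.0873, 0.0613, 0.0758 and 0.0592). With the 8 Eph receptors among the members, 13 were tested and 4 passed (30.8%), all higher in iCreb5, where 3.87% of all tested genes were higher. The family was set apart after its values were seen, so the share is a description. The others of this list that came closest were *Ntng1* at 0.68 (adjusted p = 0.074) and *Flrt1* at -0.89 (adjusted p = 0.076), named after their values were seen.

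Of 38 intracellular effectors, all tested, 2 passed, both higher in iCreb5, which is 5.26% where 6.72% of all tested genes passed. *Mical2*, of the family of actin oxidases that act below plexins, averaged 101 ± 23.6 normalised counts in iCreb5 and 49 ± 20.2 in tdTomato, and the groups did not overlap (log2 change 1.11, adjusted p = 0.0259). *Vav3* averaged 312 ± 65.7 in iCreb5 and 176 ± 63.7 in tdTomato, with overlap (log2 change 0.88, adjusted p = 0.0332). Both calls depended on single libraries, and neither passed within litter 3 (log2 changes of 1.43 and 0.87, adjusted p = 0.104 and 0.152) or within litters 4 to 6 (0.78 and 0.88, adjusted p = 0.253 and 0.153). *Mical2* lost its call without iCreb5 3a or 6 or tdTomato 3a, 3b or 4a (adjusted p = 0.0705, 0.0531, 0.0528, 0.0601 and 0.0536). *Vav3* lost it without iCreb5 3a, 3c, 4a or 5 or tdTomato 3a or 3b (adjusted p = 0.0839, 0.0732, 0.0616, 0.0509, 0.0669 and 0.0733). The median log2 change was 0.23 over the 24 further guidance genes and 0.17 over the 38 effectors, and 0.00 over all tested genes. The sums of the effectors ran from 43736 to 55099 in iCreb5 and from 40453 to 47025 in tdTomato.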

How the data were processed

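The authors' deposited table holds normalised signal: read counts per gene scaled by library. This was judged from the values, which in every library are multiples of 1 smallest step. Division by that step returned whole numbers, taken as reads, for 100% of entries (tolerance 1e-06). FastQC, STAR, Salmon and DESeq2 and the build mm10 are named, without versions, per the submitters' processing notes. Libraries were prepared with Nextera XT, per the labels' protocols. A table of another stage, with 8 columns that match no labelled sample, was not used.

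The test was limma 3.58.1 under R 4.3.3 (trend, two-sided) on log2(value + 1), for genes with 10 or more in 6 or more libraries, with no covariate and Benjamini-Hochberg adjustment over all 16733 tested genes. Fold changes are ratios of geometric means of value + 1, which understates the change of low genes. Interaction tests used litter as a term. edgeR 4.0.16 and DESeq2 1.42.0 on recovered reads were alternatives. The fit was tested on simulated data. Gene positions and merged exon lengths come from GENCODE M21 on GRCm38, the same assembly as mm10.

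The members and lists were chosen with earlier results of these data known. Named genes are all members past the threshold or with groups that do not overlap, the most abundant other member per kilobase of each family, and listed pathway genes past the threshold; other members are given by summary values, and those called in some alternative are given as well. Litter comes from the labels, so litters pair libraries across groups. Deviations from the group means correlated at a median of 0.0731 (-0.242 to 0.346) over the 12 pairs of libraries of the same litter and -0.033 (-0.259 to 0.22) over the 24 others.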

Additional observations from a re-analysis of the deposited data

Results flagged for a closer look

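In the tdTomato group *Epha1* had 215 normalised counts in library 4a, apart from the other 5 tdTomato libraries at 112.6 to 150.8. The gap to the nearest of them was 0.627 of the group's range, just over the limit of 0.625 for 6 samples. It was the only such value among 108 groups examined (both groups of each tested member and of 5 other named genes), where chance flags about 1 in 20.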

How the results depend on the processing

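Of the 49 tested members, 34 were called in none of the 27 alternatives. *Ephb1* and *Epha5* were called in 27, *Sema3a* in 26, *Dcc* in 16, *Nrp2* in 8 and *Epha7* in 7. The number called higher was 2 without iCreb5 3a and 3c (2.44% of all genes) and 3 to 5 in the others (1.79% to 5.51% of all genes). The number called lower, 0 in the pooled fit, was 4 with litter as a replicate block and litter 3 averaged (2.4% of all genes) and 1 with DESeq2 (4.27%). It was 8 within litters 4 to 6 (2.2%), 3 with the length trend removed (4.14%) and 4 without iCreb5 3a and 3c (2.07%). With 1 library left out it was 0 to 2. It was 1 without iCreb5 3a, iCreb5 3c or tdTomato 3b (2.24%, 2.37% and 2.42% of all genes), and 2 without tdTomato 5b (2.95%). The cause was not tested.

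With litter as a replicate block 5 members were higher, and over all genes 859 were higher and 728 lower, against 648 and 477 without it. Of the members, only *Epha7* changed its call under this block, without averaging. Within litter 3 the counts were 395 and 292, within litters 4 to 6 they were 320 and 368, and without iCreb5 3a and 3c 409 and 346. The change of *Sema5a*, -0.04, took the other sign with equal totals (0.028), in litter 3 (0.63), without iCreb5 5 and 6 (0.10) and in 5 of the 12 fits with 1 library left out, which ranged from -0.18 to 0.11. That of *Sema6d* was 0.017 in litter 3. Of the 34 members never called, 20 changed sign in some alternative. *Slit1*, *Sema3g* and *Sema7a* are limited by depth.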
